A study of Mus musculus with 30 samples.

Results

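The fat samples are the 2 arrays labelled fat among 30 arrays of 15 adult mouse tissues, and they were set against the other 28 arrays, 2 from each of 14 tissues. The samples were chosen by their labels, and the comparison itself was set up with earlier results of these data known. Every array carried total RNA of a tissue from male C57BL/6 mice, for which the labels give an age of 28 weeks and the study's methods another, with no transgene or treatment in any group. The tissues compared with fat were bladder, bone, brain cortex, cerebellum, eyes, heart, kidney, large intestine, liver, lung, muscle, skin, small intestine and stomach. The fat is visceral and the 2 replicates of a tissue are separate animals per the study's methods. The series' design text, however, makes an exception of bone and fat and gives each a single replication, although 2 fat arrays are labelled, and this could not be settled here. If both fat arrays come from 1 animal, the spread between them is technical, and a call on both arrays is no repeat in a further animal.

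Fat stores energy as triglyceride in the lipid droplet of the adipocyte. Adipocytes make triglyceride by activating fatty acids to acyl-CoA and joining them in steps to a glycerol backbone, and they release fatty acids again through lipases under adrenergic, cyclic AMP and insulin control. The tissue also holds fibroblasts that lay down collagen, macrophages, lymphocytes and blood vessels, and visceral fat in males includes a pad that lies against the epididymis. In bulk tissue, fewer cells of a type and less RNA per cell cannot be told apart.

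Levels are given as log2(Cy3/Cy5), where Cy3 is the tissue and Cy5 a reference pool of mouse cell line RNA put on every array. A positive level thus means more signal from the tissue than from the reference, and a difference of 1 between tissues is a doubling of that ratio. Of the 25030 probes in the authors' table, 21026 were tested, namely those whose Cy3 spot stood clear of its background on each array of some tissue. A probe was called raised in fat when limma gave an adjusted p under 0.05 for fat against the mean of the other 14 tissues, the difference was at least 1, and each fat array by itself lay at least 1 above that mean. Lowered is the mirror image. Of the probes tested, 5049 had a gene symbol, and only those are named.

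The fat arrays differed widely from each other. Their levels correlated across probes with r = 0.671, against 0.798 for large intestine, 0.848 for bone and 0.947 or more for the other 12 tissues. Fat replicate 1 was closer to bladder replicate 1 (r = 0.706) than to fat replicate 2, whereas the nearest array to fat replicate 2 was fat replicate 1. A total of 1092 probes were at least 2 higher on fat replicate 1 and 72 at least 2 higher on fat replicate 2, together 5.54% of the probes tested. The share of probes with Cy3 above background was 67.7% on replicate 1 and 57.9% on replicate 2. The arrays also came from different slides and scan days, and the identifier label of fat replicate 2 carries another replicate number than its title. Its slide also held bone replicate 2.

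**Figure D1:**
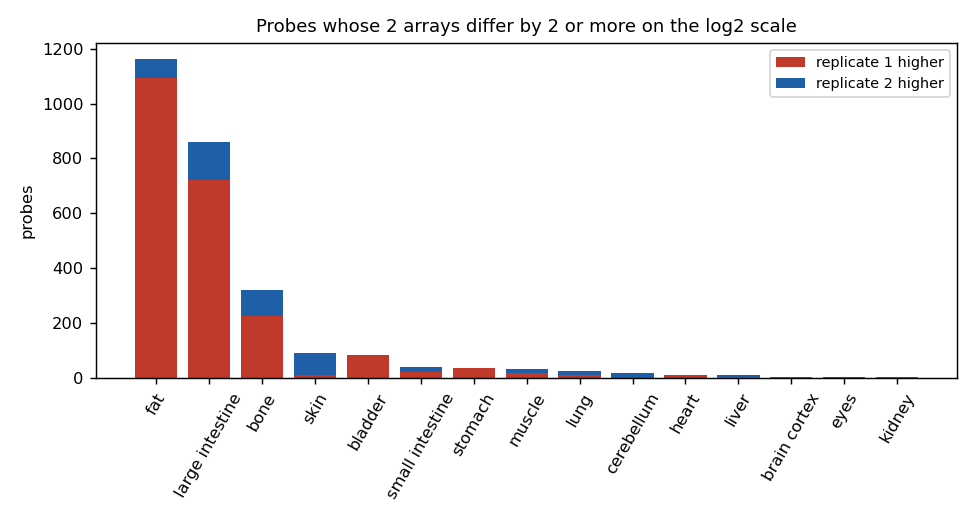
Number of probes (y axis) whose 2 arrays differ by 2 or more in log2(Cy3/Cy5), for each of the 15 tissues (x axis), split by which replicate is higher. Fat has 1092 probes higher on replicate 1 and 72 higher on replicate 2, and large intestine is next with 723 and 138.

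Genes raised on both fat arrays included enzymes of fatty acid and triglyceride synthesis and genes of the adipocyte list. Collagen-processing and collagen genes and receptors of macrophages were also raised, but their calls depended more on the setting. In all, 588 probes were raised on both fat arrays (2.80% of those tested) and 633 were lowered (3.01%). Among probes with a symbol the counts were 103 raised (2.04%) and 111 lowered (2.20%). Without the demand on each array, 1352 probes were higher and 1129 lower at the same threshold, so 764 probes with a higher mean failed on 1 of the 2 arrays, and in 452 of these replicate 1 was the higher array. Of the 588 raised probes, 407 were higher on replicate 2 than on replicate 1, and the 2 arrays lay within 1 of each other for 429. With replicate 1 left out, 1505 probes passed on replicate 2 alone, and with replicate 2 left out 2201 passed on replicate 1 alone.

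**Figure D2:**
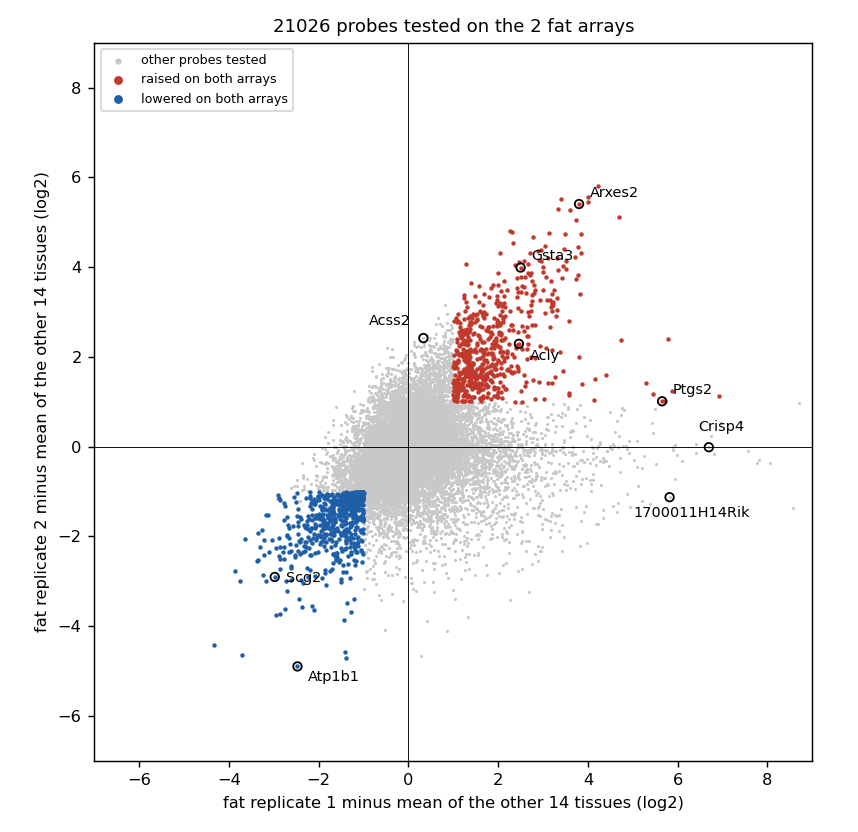
Each point is 1 of 21026 probes, placed by its level on fat replicate 1 (x axis) and on fat replicate 2 (y axis), both as the log2 difference from the mean of the other 14 tissues. Red points are the 588 probes raised and blue points the 633 lowered on both arrays, and the grey points that run along the right of the x axis are high on replicate 1 only, Crisp4 and 1700011H14Rik among them.

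Raised did not mean highest in fat. Fat was the highest of the 15 tissues for 222 of the 588 raised probes and the second for 171. The highest other tissue was liver for 131 of them, of which fat exceeded liver in 19, and lung for 96, of which fat exceeded lung in 39. Skin followed with 58 and kidney with 45. Both fat arrays lay above all 28 other arrays for 108 of the raised probes, and for 179 of all probes tested (0.851%).

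Arxes2 and Arxes1, a pair of neighbouring X chromosome genes that are switched on during fat cell differentiation, had the largest differences of the named genes. For Arxes2 (2900062L11Rik in the study's lists) the level was 2.41 on fat replicate 1 and 4.02 on fat replicate 2, against a mean of -1.39 in the other tissues. The 2 cerebellum arrays, at 3.15 and 3.06, were the next and lay between the 2 fat arrays. The difference from the other tissues was 4.60 ± 0.44 (log2, SE; 24.3-fold), with limma's adjusted p = 4.19e-07. Arxes1 (6530401D17Rik) stood at 1.35 and 2.95 in fat and at 2.97 and 2.77 in cerebellum, with a difference of 3.51 ± 0.35 (adjusted p = 5.83e-07), and fat was the fourth tissue in order. These genes are close copies. The probes for them share no run longer than 6 of 60 bases, but whether either probe also binds the other transcript was not tested.

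The RefSeq promoters of the pair (GRCm38.p6, 250 bases before to 50 after the start) were compared because the genes moved together. The window of Arxes2 (chrX:135993570-135993869, plus strand) and that of Arxes1 (chrX:136033117-136033416, plus strand) were identical at all 300 of 300 positions. The shared sequence is printed once, 5′ to 3′, with the GC boxes (GGGCGG on either strand) in capitals.
Arxes2 and Arxes1: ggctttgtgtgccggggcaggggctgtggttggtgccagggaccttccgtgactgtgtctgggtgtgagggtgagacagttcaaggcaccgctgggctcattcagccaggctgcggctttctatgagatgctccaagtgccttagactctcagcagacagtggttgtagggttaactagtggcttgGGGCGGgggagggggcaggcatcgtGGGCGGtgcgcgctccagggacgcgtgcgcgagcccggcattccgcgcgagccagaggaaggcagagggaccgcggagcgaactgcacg

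The gene lists below are read against the same counts over all probes with a symbol. On replicate 1 alone 9.33% of these were raised and 3.66% lowered, and on replicate 2 alone 5.37% were raised and 6.83% lowered. With array weights, which let the more variable tissues count less, the shares were 1.33% and 0.792%, and against the 6 tissues whose scan days link with those of fat, with scan day as a term, they were 2.87% and 2.93%.

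Genes of the adipocyte list came next. Only 6 of its 28 symbols were paired with a probe here. The best known markers of the fat cell (Adipoq, Lep, Fabp4 and Pparg) were not among them. The list was also chosen with earlier results of these data known, so its counts are a description and no check of the tissue label. Of the 6 tested, 3 were raised (Fcor, Cavin2 and Inhbb) and none lowered, beside 2.04% raised among named probes, with a median difference of 1.63 against -0.06 over all probes tested. On replicate 1 alone 3 passed and on replicate 2 alone 4. Fcor (2400009B08Rik), a corepressor of Foxo1 in adipocytes, stood at 1.85 and 2.65 in fat. Its next tissue, cerebellum, reached 1.41 and 1.43, so both fat arrays were above all other arrays, and the difference was 3.03 ± 0.24 (adjusted p = 3.56e-08). Inhbb, the beta B subunit of activin and inhibin, was at 1.82 and 1.45 in fat, just above lung at 0.73 and 1.32, with a difference of 2.47 ± 0.19 (adjusted p = 3.10e-08). Cavin2 (Sdpr), a coat protein of the caveolae that are dense in fat cell membranes, was at 1.53 and 2.94 in fat but higher in lung, at 3.68 and 3.31. Rxrg, a nuclear receptor, was at 2.71 and 4.25 in fat and at 6.65 and 6.76 in muscle, and was not called raised on both arrays. Adipor1, an adiponectin receptor, was at -0.21 and -0.29 against 0.25 in the other tissues.

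Abhd15 (1300007F04Rik), a fat cell protein tied to the insulin control of lipolysis, was at 3.09 and 4.28 in fat. Liver was higher, at 4.56 and 4.49, fat was the second tissue, and the difference from the mean of the other tissues was 3.19 ± 0.20 (adjusted p = 2.53e-09). Aifm2, an oxidoreductase that protects lipids from peroxidation, was at 2.37 and 3.76, with bladder next at 2.50 and 2.81 and a difference of 2.67 ± 0.21 (adjusted p = 5.21e-08). Gsta3, a glutathione transferase, was at 4.03 and 5.52 in fat but at 7.31 and 7.40 in liver. Eci3 (1810022C23Rik), an isomerase in the breakdown of unsaturated fatty acids, was at 4.70 and 4.52 in fat and at 6.46 and 6.17 in kidney. Both were raised against the mean, by 3.24 and 3.12, and neither was highest in fat.

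**Figure D3:**
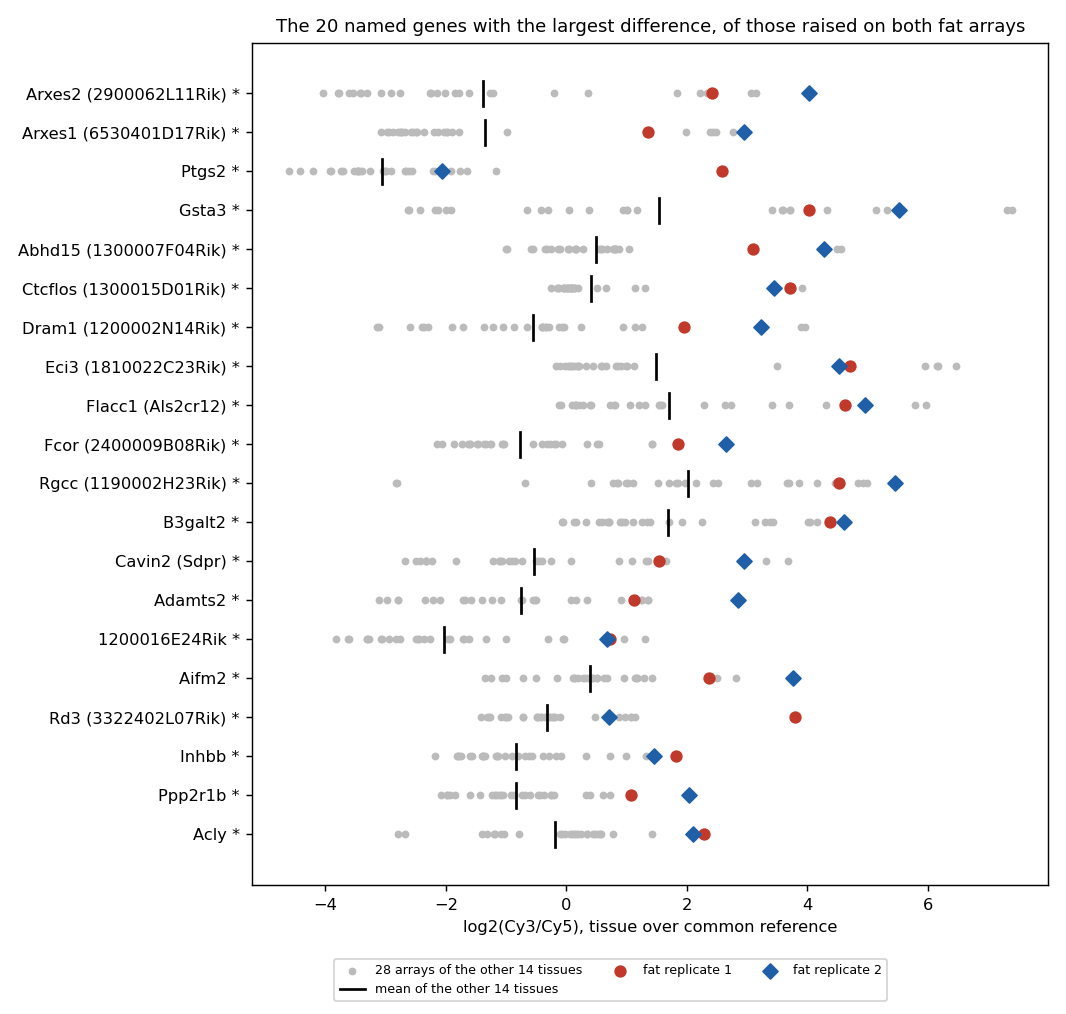
Levels of the 20 named genes with the largest difference among those raised on both fat arrays (rows, marked *) as log2(Cy3/Cy5) (x axis). Grey dots are the 28 arrays of the other tissues, the black bar is the mean of the 14 tissues, and red circles and blue diamonds are fat replicates 1 and 2. For Fcor and Inhbb both fat arrays lie right of all grey dots, for Gsta3 and Eci3 liver or kidney arrays lie further right, and Ptgs2 and Rd3 have their fat arrays far apart.

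The differences of the 20 genes ran from 2.38 to 4.60. Among the remaining ones, Rgcc (1190002H23Rik), a cell cycle regulator, was at 4.52 and 5.46 in fat, with lung next at 4.99 and 4.84. B3galt2, a galactosyltransferase, was at 4.37 and 4.60, with brain cortex next at 4.39 and 4.04. Ppp2r1b, a scaffold subunit of protein phosphatase 2A, was at 1.08 and 2.03, above all other arrays, and 1200016E24Rik was at 0.72 and 0.67, below lung at 1.31 and 0.96.

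Some of these 20 genes rested mainly on replicate 1. Ptgs2, the inducible cyclooxygenase of prostaglandin synthesis, was at 2.59 on replicate 1 and at -2.05 on replicate 2. Since the other tissues averaged -3.07, replicate 2 exceeded that mean by just over 1, but it lay within the range of the other arrays (up to -1.17). With replicate 1 left out its adjusted p was 0.183. Rd3 (3322402L07Rik), a regulator of guanylate cyclase in photoreceptors, was at 3.80 and 0.71 in fat, and kidney at 1.07 and 1.08 lay above replicate 2. When limma weighted the arrays of each tissue by their own spread, the fat arrays received a weight of 0.136 (large intestine had the lowest, 0.108) and 17 of the 20 genes kept an adjusted p under 0.05. The exceptions were Ptgs2 (adjusted p = 0.119), B3galt2 (0.112) and Rgcc (0.0575).

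The list of fatty acid and triglyceride synthesis held the largest number of raised genes. Of 16 genes tested, 8 were raised and none lowered, against a background of 2.04% raised among named probes, and the median difference was 1.40. The count was 11 on replicate 2 alone, 9 on replicate 1 alone and 8 with the array weights. Of the 16, 14 were higher on replicate 2 than on replicate 1, as were 48.3% of named probes. Against only the 6 tissues that share linked scan days with fat, with scan day as a term, 6 were raised.

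Acly, which splits citrate to give the acetyl-CoA for fatty acid synthesis, was at 2.28 and 2.11 in fat, with liver next at 1.42 and 2.22. The difference was 2.38 ± 0.18 (adjusted p = 2.14e-08), and muscle was the lowest tissue. Acsl1, which activates long-chain fatty acids to acyl-CoA, was at 4.27 and 4.78 in fat and at 5.31 and 5.16 in liver, with a difference of 2.28 ± 0.22 (adjusted p = 4.37e-07). Both genes had fat and liver among the highest tissues.

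The acyltransferases that build the glycerolipid followed. Gpat3 (Agpat9), which adds the initial acyl group to glycerol-3-phosphate, was at 2.43 and 3.73 in fat, below small intestine at 4.56 and 4.53 (difference 2.13 ± 0.32, adjusted p = 5.98e-05). Agpat2, the next enzyme and a gene mutated in lipodystrophy, was at 1.65 and 2.93, with liver at 2.75 and 2.99 (difference 1.92 ± 0.21, adjusted p = 1.87e-06). Agpat3, a related acyltransferase, had its fat arrays close together at 1.92 and 2.03. Mogat1, which acylates monoacylglycerol, was at 3.16 and 3.52 in fat and at 4.21 and 4.14 in stomach (difference 2.12 ± 0.19, adjusted p = 2.00e-07). Dgat1, which catalyses the last step to triglyceride, was at 1.53 and 2.89 in fat and higher in small intestine, which reached 4.45. Its mean difference of 1.61 ± 0.20 passed the test (adjusted p = 1.09e-05), but replicate 1 lay less than 1 above the other tissues, so it was not called on both arrays.

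The remaining raised members were Dbi, the acyl-CoA binding protein, at 2.75 and 3.30, and Aacs, an acetoacetyl-CoA synthetase, at 1.47 and 2.41. Acss2, which makes acetyl-CoA from acetate, was at 2.37 on replicate 1 and 4.45 on replicate 2, where it reached the level of liver at 4.31 and 4.56. Its replicate 1 was near the mean of the other tissues, 2.04. Acsl4, a synthetase with a preference for arachidonate, was at 0.05 and -0.91 against -1.15, and Gpat4 (Agpat6) was at 0.99 and 1.55 against 0.51.

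**Figure D4:**
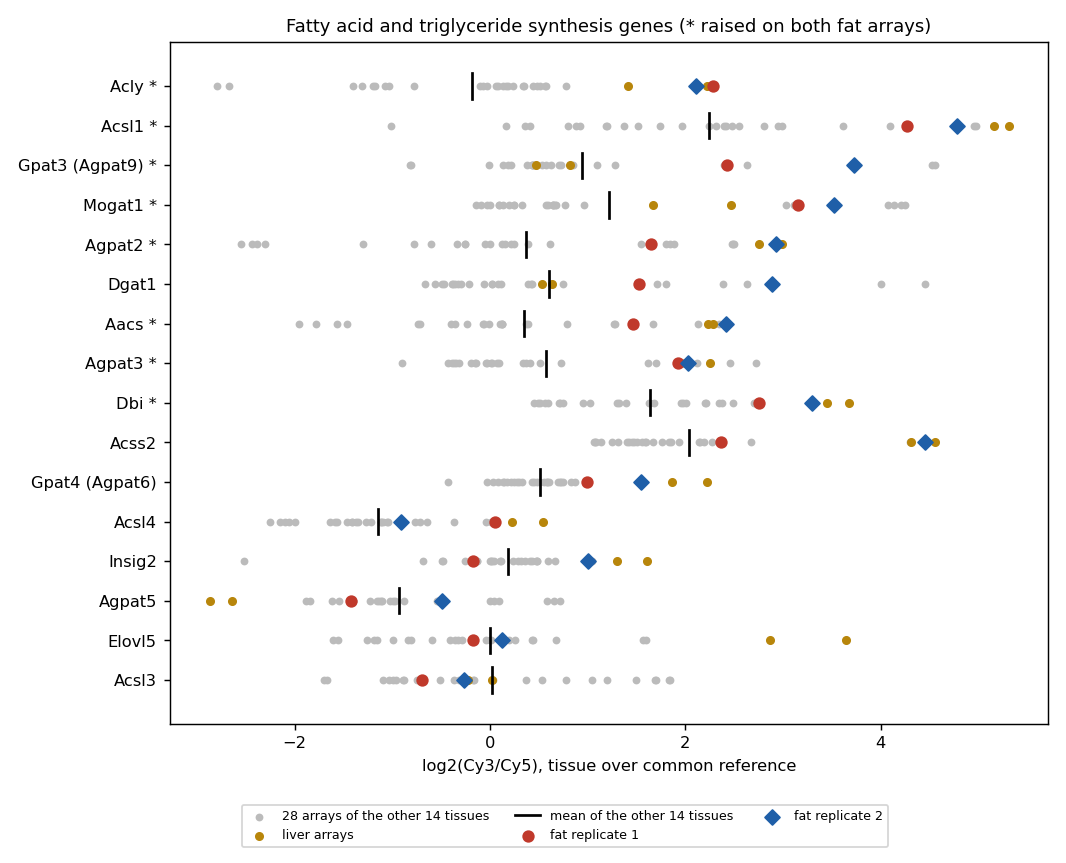
Levels of the 16 genes of fatty acid and triglyceride synthesis as log2(Cy3/Cy5) (x axis), with liver arrays in gold, the other arrays in grey, the mean of the other 14 tissues as a black bar, and fat replicates 1 and 2 as a red circle and a blue diamond. The 8 genes marked * are raised on both fat arrays, and Acss2 has replicate 2 at the liver level and replicate 1 near the mean.

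In the lists for fat breakdown few genes were called. Of 6 genes of the lipid droplet and lipolysis list, Aifm2 was raised and none were lowered, beside 2.04% raised among named probes. The raised count was 1 with the array weights. It was 2 with the scanner software's processed signals and 2 with the authors' table, beside 3.82% and 4.38% of named probes. The list's median difference was 0.16 on replicate 1 alone and 0.7 on replicate 2 alone. Abhd15 and Eci3, described above, belong to neither list. Plin5 (2310076L09Rik), a droplet coat protein of oxidative tissues, was at 3.25 and 2.66 in fat and at 5.84 and 5.89 in heart. Abhd5, the coactivator of the main triglyceride lipase, was at 1.11 and 2.18 against 1.00 in the other tissues, and Abhd6, a monoacylglycerol lipase, was below the mean at 0.74 and 1.18 against 1.61 (adjusted p = 2.80e-04). Of 25 fatty acid oxidation genes, 1 was raised and 1 lowered, with a median difference of 0.18, and with the array weights neither was called. On replicate 2 alone 6 were raised and 2 lowered, and on replicate 1 alone 1 and 1. The raised gene was Acaa1b, a peroxisomal thiolase, at 3.73 and 4.42 in fat and 5.57 and 5.72 in liver. The lowered gene was Acot12, an acyl-CoA thioesterase of kidney and liver, which was not well above background on either fat array and below the mean of the other tissues by the test (adjusted p = 4.15e-06). Acad11, an acyl-CoA dehydrogenase, was at 2.18 and 3.26 against 1.96.

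Of 19 genes of adrenergic and cyclic AMP signalling, none were raised and Adcy2, an adenylyl cyclase, was lowered (adjusted p = 2.27e-05), at -0.14 and -0.04 against 1.22, with 1 of the fat arrays above background. That is 1 of 19, beside 2.20% lowered among named probes, and with the array weights it was not called. On replicate 2 alone 1 was raised and 6 were lowered, on replicate 1 alone 3 were raised and 1 lowered, and against the 6 linked tissues 2 were raised and 1 lowered. The A1 adenosine receptor Adora1, which restrains lipolysis, was at 3.54 and 3.11 in fat against 2.53, a difference of 0.79 ± 0.14 (adjusted p = 3.58e-04) that fell short of 1. Adcy5 was at 3.08 and 3.10 against 2.21. Adcy8 was at 5.41 on replicate 1 and 0.04 on replicate 2. Adora1, Adcy5 and Adcy8 had fat means above that of the other tissues, but the list as a whole did not lean that way. Its median difference was -0.43, and 0.0833 against the 6 linked tissues. By limma's adjusted p under 0.05 alone, 4 of the 19 genes were higher in fat and 7 lower. Differences ran down to -1.8, in a gene not called on both arrays.

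Of 13 genes of cholesterol handling tested, 2 were raised and 2 lowered, beside 2.04% and 2.20% of named probes. On replicate 1 alone 5 were raised and 1 lowered, on replicate 2 alone 2 and 2, with the array weights 2 and 1, and against the 6 linked tissues 3 and 1. Abca1, the pump that exports cholesterol from cells, was at 3.09 and 3.56 in fat, above every other array, with liver next at 3.06 and 2.56 (difference 2.30 ± 0.30, adjusted p = 1.39e-05). Acat2, the cytosolic thiolase that starts cholesterol synthesis, was at 1.14 and 0.56, near liver at 0.60 and 0.78 (difference 1.97 ± 0.13, adjusted p = 3.74e-09). Abca7, a relative of Abca1, fell to -0.94 and -0.50 against 0.91, the lowest mean of the 15 tissues, and Apoa2, an apolipoprotein, was at 0.19 and 0.04 against 1.41 (adjusted p = 0.00567). The call of Apoa2 was lost with the array weights (adjusted p = 0.313), against the 6 linked tissues (0.151) and on replicate 1 alone (0.0565). Abcg1 was at 0.65 on both arrays against 0.00 in the other tissues. Abca2 was at 1.88 and 0.53, and Abcg2 at 2.95 and -0.50.

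Connective tissue genes came next to the synthesis genes in number. Of 23 tested, 6 were raised and none lowered, beside 2.04% and 2.20% of named probes, with a median difference of 0.93, and 19 of the 23 were higher on replicate 2 (48.3% of named probes). Adamts2, which trims procollagen, was at 1.12 and 2.84, with skin next at 1.35 and 1.35 (difference 2.74 ± 0.29, adjusted p = 1.50e-06). Col3a1, a fibrillar collagen, was at -0.59 and 1.03 in fat and at 1.78 and 2.04 in skin. Dpt, a matrix protein of dermis and fat, was at 3.40 and 3.17, and Fmod, which binds collagen fibrils, at 1.87 and 1.78. Aebp1 was at -0.08 and -0.02 against -1.74, and Col6a3, a chain of the collagen VI that surrounds adipocytes, at -0.24 and 0.53 against -1.25.

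This count depended on the setting more than that of synthesis. It was 2 with the array weights, where the calls of Col3a1 (adjusted p = 0.167), Col6a3 (0.421), Dpt (0.149) and Fmod (0.674) were lost. The list's median difference was 1.28 on replicate 2 alone and 0.52 on replicate 1 alone. Against the 6 tissues of linked scan days, which hold skin and bone, 4 were raised, the median difference was 0.0325, and Col3a1 and Col6a3 had differences of -0.09 and -0.07. On the slide and day it shared with bone, the difference of fat replicate 2 from bone replicate 2 was 1.59 for Adamts2, 0.56 for Aebp1 and 0.22 for Dpt, and -1.16 for Col3a1, -1.48 for Fmod and -0.98 for Col6a3. Ddr2, a collagen receptor, was at 0.05 and 1.15, Prelp at 2.18 and 2.91, Sulf1 at 0.41 and 1.36, and Prrx1, a transcription factor of mesenchyme, at -0.61 and -1.16, and none of these were called on both arrays.

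Of the genes that mark other cells of the tissue, macrophage genes gave calls. Of 17 tested, 3 were raised and none lowered, beside 2.04% and 2.20% of named probes (median difference 0.65), with 7 on replicate 1 alone, 6 on replicate 2 alone and 1 with the array weights. Fcgr2b, the inhibitory IgG receptor, was at 1.75 and 1.60, just above kidney at 1.47 and 1.53 (difference 2.33 ± 0.23, adjusted p = 4.52e-07). Fcgr3, an activating IgG receptor, was at 1.94 and 2.71, and Marco, a scavenger receptor, at 2.06 and 2.29 in fat and 6.37 and 4.35 in liver. With the array weights the calls of Fcgr3 (adjusted p = 0.172) and Marco (0.369) were lost. Slc11a1, a metal transporter of the phagosome, had its highest mean in fat at -0.51 and 0.29, but lay less than 1 above the others on replicate 1. Trem2 was at -0.47 and -0.79, Fcer1g at 1.28 and 1.47, and Inpp5d, a phosphatase of blood cells, at 1.90 and -0.75.

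No gene was raised or lowered on both arrays in the lists for lymphocytes (19 tested), endothelium (9) and smooth muscle (8). For lymphocytes this depended on the setting: 6 of the 19 were raised with the scanner software's processed signals, where 3.82% of named probes were and the median of the list was 0.337 against -0.19 for all probes. With the authors' table the count was 3, beside 4.38% of named probes, and on replicate 1 alone 2. In the main fit the median difference of the lymphocyte list was -0.02. By limma's adjusted p under 0.05 alone, 2 of the 19 genes were higher in fat and 4 lower. Zap70 and Stat4, given below, both had a mean above that of the other tissues, so they do not stand for the list. The median difference of the smooth muscle list was 0.56 on replicate 1 alone and -0.64 on replicate 2 alone, and that of the endothelium list 0.1 and -0.17. With the Cy3 level alone 1 smooth muscle gene was lowered, and against the 6 linked tissues also 1. Zap70, a T cell kinase, was at 0.98 and -0.70, Stat4 at -0.80 and -0.52, Acvrl1, a receptor of endothelium, at 2.97 and 3.18 against 2.40, Tm4sf1 at -1.05 and -0.03, Tns1 at 3.43 and 4.47 against 2.66, and Des, the intermediate filament of muscle, at 1.34 and 0.24 against 1.53. Of the 8 smooth muscle genes, 5 were at least 1 higher on replicate 1 than on replicate 2, as were 12.0% of named probes. Over all lists, 32 genes were called raised or lowered, and 18 of them kept an adjusted p under 0.05 with the array weights. The lists for brown fat and pancreas had no gene paired with a probe, and that for mesothelium 1 gene tested, which was not called.

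**Figure D5:**
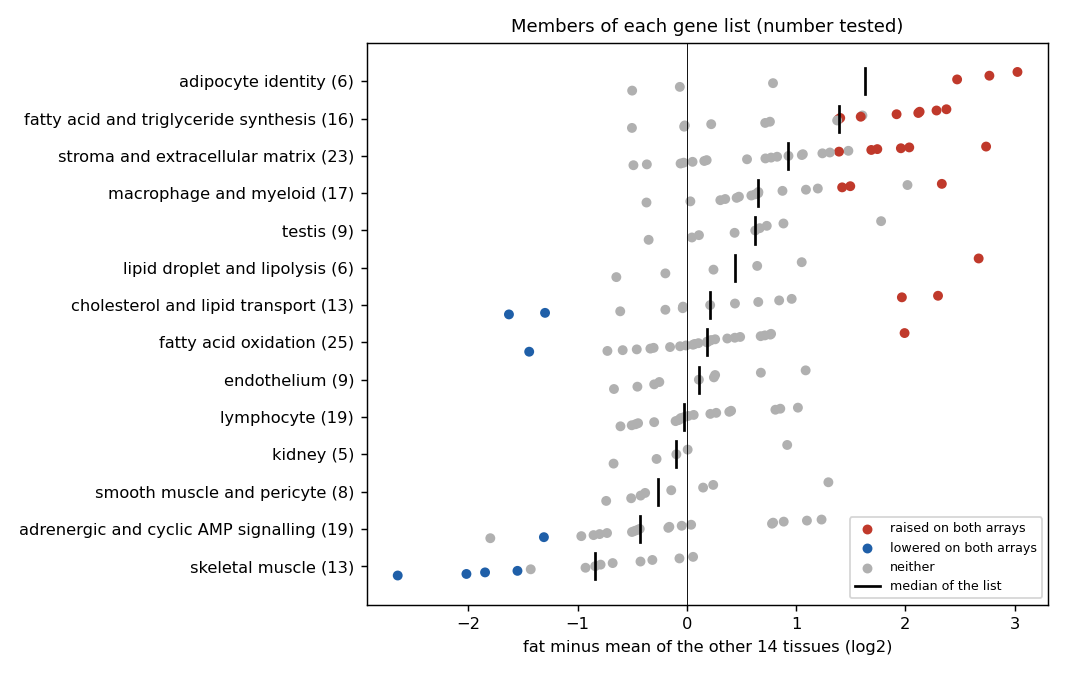
Difference between fat and the mean of the other 14 tissues on the log2 scale (x axis) for each tested member of 14 gene lists (rows, with the number tested). Red points are raised and blue points lowered on both arrays, grey points neither, and the black bar is the list's median, which runs from 1.63 for adipocyte identity to -0.84 for skeletal muscle.

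Among the named genes lowered most in fat were Atp1b1, Rbfox1 and Scg2, and 4 genes of the skeletal muscle list were lowered. The highest tissue was brain cortex for 96 of the 633 lowered probes, heart for 79, muscle for 76 and liver for 59. Both fat arrays lay below all 28 other arrays for 30 of the lowered probes and for 84 of all probes tested (0.400%). Atp1b1, a subunit of the sodium pump, had the largest named difference. It was at 1.08 on replicate 1 and -1.34 on replicate 2, the lowest mean of the 15 tissues, against 6.44 and 5.85 in kidney (difference -3.68 ± 0.43, adjusted p = 4.46e-06). Replicate 1 lay above both bladder arrays, whose mean was 0.46.

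Rbfox1 (A2bp1), a splicing factor of neurons and muscle, was at 1.19 and 0.38 in fat and at 8.44 and 8.28 in brain cortex (difference -3.36 ± 0.34, adjusted p = 7.85e-07). Scg2, a protein of secretory granules, was not well above background on either fat array and at least 7.39-fold lower than in the mean of the other tissues (adjusted p = 2.16e-05). Such a bound compares single-channel Cy3 levels, with the dim fat arrays set to the lowest level that counts as above background, and is open to dye bias since the dyes were not exchanged. Retreg1 (1810015C04Rik), a receptor for the removal of endoplasmic reticulum, was at 0.46 and -2.87, against 1.85. 0610040J01Rik was at -0.05 and -0.93, against 5.37 and 5.18 in stomach.

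Of 13 skeletal muscle genes, 4 were lowered (2.20% of named probes were lowered), none were raised, and the median difference was -0.84. Actn2, which anchors actin in the Z-disc, was at -0.54 and -0.28 in fat and 4.82 and 4.93 in heart (difference -2.65 ± 0.40, adjusted p = 6.11e-05). Tnni1, a slow-fibre troponin, was at -1.49 and -0.56, and Ankrd23 at 0.57 and 0.39 against 7.11 and 7.30 in bone. Bone was the highest tissue for Tnni1 and Ankrd23. Mstn, which limits muscle growth, was not well above background in fat and at least 2.73-fold lower (adjusted p = 0.0304). That call was lost with the array weights (adjusted p = 0.687), with slide as a random block (0.352) and against the 6 linked tissues (0.0663). The call of Tnni1 was lost with the array weights (0.687) and with slide as a random block (0.0607). Cacna1s, a calcium channel of muscle, was at -1.38 and -0.29 and was not called on both arrays. The lowered count of the list was 0 with the array weights, 2 with slide as a random block and 2 with scan day as a random block. The list's median difference was -1.17 on replicate 1 alone and -0.71 on replicate 2 alone. Adssl1, a purine enzyme of muscle, was at -1.09 and -1.53, against 5.37 and 5.53 in muscle. Urah (1190003J15Rik), which degrades a product of urate, was at -2.39 and -3.34, against 4.37 and 4.42 in liver. Fam25c (2200001I15Rik) was at -3.95 and -2.53, against 5.59 and 5.28 in skin, and 2200002D01Rik was at -2.47 and -1.62, against 5.10 and 4.60 in large intestine. With the array weights, 7 of the 10 most lowered genes kept an adjusted p under 0.05, and Rbfox1 (A2bp1; 0.0774), Scg2 (0.0506) and Actn2 (0.413) did not.

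A stricter rule asked for a difference of at least 1 from each of the 14 tissues by limma and for both fat arrays above every other array. It was met by 46 probes (0.219% of those tested), of which 41 were also raised on both arrays, 4 entered the test only through their signal in fat, and 3 had a symbol (0.0594% of the probes with one). Akr1cl (4921521F21Rik), a relative of the aldo-keto reductases, was at 3.26 and 1.48 in fat, and the next tissue, skin, was at 0.45 and 0.73 (difference from the mean 2.31 ± 0.24, adjusted p = 9.39e-07). Adcy10, the bicarbonate-sensitive soluble adenylyl cyclase, was at 1.90 and 0.76. It was not well above background in any other tissue, so it entered the test only through fat, and its call is no support. 1700009N14Rik was at 4.38 on replicate 1 but only 0.12 on replicate 2, with all other arrays between -0.40 and 0.05. It too entered only through fat, and its call rested on replicate 1. The 43 probes without a symbol are known here by their identifiers only. The raised probe with the largest difference of all, Z00075192-1, was among them, at 3.74 and 5.34 against 2.37 in skin (difference 5.01 ± 0.46).

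The 4 named genes with the largest gap between the fat arrays were all high on replicate 1. 1700011H14Rik was at 7.04 and 0.10, and kidney at 8.11 and 7.91. Crisp4, a secreted protein of the epididymis, was at 6.72 and 0.01, with no other array above 0.59. C4bp, a complement regulator made by liver, was at 6.50 and -0.17 and in liver at 7.14 and 7.24. Crygc, a lens crystallin, was at 6.36 and -0.06 and in eyes at 6.95 and 6.77. Replicate 2 lay near 0 for all of them.

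Some genes of other tissues were also higher on replicate 1. Tnp1, a nuclear protein of spermatids, was at 3.90 and 0.02, and Pkhd1, a cilium protein of kidney tubules, at 3.97 and -0.05 against 6.31 and 6.24 in kidney. Crisp4 was the only gene of the 14 symbols for epididymis and male accessory gland with a probe tested here. Of 9 testis genes, none were raised on both arrays, 3 were at least 1 higher on replicate 1, and 3 passed on replicate 1 alone. Of 5 kidney genes, none were raised and 1 was at least 1 higher on replicate 1. Over all named probes 12.0% were at least 1 higher on replicate 1 and 9.33% passed on it alone, so with so few genes nothing particular to either tissue is read from these counts. The part of these genes in the calls above was not tested. Crisp4, C4bp, Crygc, Tnp1 and 1700011H14Rik did not meet the demand for a difference on each array and were not in the raised set.

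In the other direction the gaps were smaller. Ptp4a1, a phosphatase of growing cells, was at 1.60 on replicate 1 and 3.80 on replicate 2, Tmem242 (5730437N04Rik) at -0.97 and 1.61, Insyn1 (6030419C18Rik) at -1.98 and 0.30, and 3830403N18Rik at -4.41 and -2.22. Of these 4, the mean passed the test only for Ptp4a1 (difference 1.76 ± 0.43, adjusted p = 0.00428), which was not called on both arrays.

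The same fat values were also set against the arrays of their own scan day, which are in part those that chose the raised probes, so the counts are a description. Replicate 1 was scanned on a day with 9 arrays of 5 other tissues, and 505 of the 588 raised probes were at least 1 above the mean of those tissues. Replicate 2 shared its day with bone replicate 2 alone, and 444 of the 588 were at least 1 above it. Both held for 386, and for 47 at least one of the 2 differences was below 0. Of all 21026 probes tested, 2586 met the condition for replicate 1, 1738 that for replicate 2 and 650 both.

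The promoters of the raised genes were read for short motifs because these genes rose together. RefSeq windows were matched for 91 of the genes behind the 103 raised probes and 88 of those behind the 111 lowered probes. C/EBP factors, which drive fat cell differentiation, bind sites related to TTGCNNAA. These letters, on either strand, were in a window of 23 of the 91 raised genes (25.3%), 10 of the 88 lowered genes (11.4%), 389 of the 3787 named genes tested with a window (10.3%) and 3298 of 27025 genes in the whole table (12.2%). This was the widest gap among 9 motifs searched, and no test was made of it. The TATAAA box was in 9.43% of raised and 7.81% of tested windows, CCAAT in 38.68% and 38.03%, and the GC box GGGCGG in 56.6% and 55.52%. The nuclear receptor site AGGTCA was in 16.04% of raised and 13.95% of tested windows, the E-box CACGTG in 9.43% and 9.89%, the SREBP site TCACNCCAC in 1.89% and 1.11%, and the cyclic AMP site TGACGTCA in none of the 106 raised windows and 3.06% of tested ones. The PPAR DR1 repeat, which contains AGGTCA, was in none of the raised windows and in 0.09% of tested ones. A match is a run of letters and not a measured site.

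The windows below are those of the genes among the 20 most raised on both arrays that hold TTGCNNAA, followed by Agpat3 as a triglyceride synthesis gene. Capitals mark the match on either strand, and each line runs 5′ to 3′ on the strand of the gene (GRCm38.p6).
Ptgs2 (chr1:150099781-150100080, plus strand): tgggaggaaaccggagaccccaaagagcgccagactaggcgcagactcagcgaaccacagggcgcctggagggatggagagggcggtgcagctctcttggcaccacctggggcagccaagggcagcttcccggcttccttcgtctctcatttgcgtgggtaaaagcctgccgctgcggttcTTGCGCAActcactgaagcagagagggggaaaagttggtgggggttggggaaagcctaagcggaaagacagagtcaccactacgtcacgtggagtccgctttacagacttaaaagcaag
Gsta3 (chr1:21240335-21240634, plus strand): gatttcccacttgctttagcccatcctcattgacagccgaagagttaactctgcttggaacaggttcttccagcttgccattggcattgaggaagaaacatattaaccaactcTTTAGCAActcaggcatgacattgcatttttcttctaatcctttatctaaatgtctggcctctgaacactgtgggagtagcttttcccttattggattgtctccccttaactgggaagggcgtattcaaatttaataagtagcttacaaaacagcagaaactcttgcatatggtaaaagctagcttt
Ctcflos (chr2:173124499-173124798, plus strand): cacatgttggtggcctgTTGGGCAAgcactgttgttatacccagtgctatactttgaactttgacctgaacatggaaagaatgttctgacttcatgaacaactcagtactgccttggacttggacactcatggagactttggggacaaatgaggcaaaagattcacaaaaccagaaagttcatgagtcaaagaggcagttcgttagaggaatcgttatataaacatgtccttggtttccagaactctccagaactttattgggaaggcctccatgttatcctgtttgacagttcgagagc
Dram1 (chr10:88357026-88357325, minus strand): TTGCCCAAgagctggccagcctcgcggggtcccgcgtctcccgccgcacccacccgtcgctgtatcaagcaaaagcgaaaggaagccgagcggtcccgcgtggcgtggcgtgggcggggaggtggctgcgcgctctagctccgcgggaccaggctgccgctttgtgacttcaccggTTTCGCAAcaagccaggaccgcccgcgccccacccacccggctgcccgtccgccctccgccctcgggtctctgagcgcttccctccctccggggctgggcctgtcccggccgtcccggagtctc
Flacc1 (chr1:58692396-58692695, minus strand): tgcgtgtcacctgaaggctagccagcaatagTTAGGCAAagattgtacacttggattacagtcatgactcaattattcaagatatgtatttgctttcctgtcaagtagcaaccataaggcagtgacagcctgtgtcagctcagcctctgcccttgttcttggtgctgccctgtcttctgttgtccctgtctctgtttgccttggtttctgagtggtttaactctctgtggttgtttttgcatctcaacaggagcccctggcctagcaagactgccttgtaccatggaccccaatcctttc
Aifm2 (chr10:61720399-61720698, plus strand): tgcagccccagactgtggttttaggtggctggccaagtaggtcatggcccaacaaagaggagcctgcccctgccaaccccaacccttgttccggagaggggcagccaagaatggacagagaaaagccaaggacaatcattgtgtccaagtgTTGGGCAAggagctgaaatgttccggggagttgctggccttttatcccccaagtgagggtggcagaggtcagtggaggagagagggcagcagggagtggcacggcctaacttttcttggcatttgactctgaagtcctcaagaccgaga
Agpat3 (chr10:78351651-78351950, minus strand): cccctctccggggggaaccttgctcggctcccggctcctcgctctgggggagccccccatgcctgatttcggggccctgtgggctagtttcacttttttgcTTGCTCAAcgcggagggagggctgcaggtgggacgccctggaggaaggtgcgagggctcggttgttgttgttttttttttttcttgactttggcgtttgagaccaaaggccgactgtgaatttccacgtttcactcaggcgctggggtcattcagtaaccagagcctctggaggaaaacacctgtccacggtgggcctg

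Among these genes, Ptgs2 carries the fully palindromic form of the motif, and Dram1 has 2 matches. Ctcflos (1300015D01Rik), a long noncoding RNA, was at 3.72 and 3.44 in fat and at 3.47 and 3.91 in liver. Dram1 (1200002N14Rik), a lysosomal protein that promotes autophagy, was at 1.95 and 3.22 in fat and at 3.95 and 3.90 in lung. Flacc1 (Als2cr12) was at 4.63 and 4.96 in fat and at 5.78 and 5.97 in small intestine. Their differences from the other tissues were 3.18, 3.15 and 3.09.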

How the data were processed

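Members and gene lists were chosen with earlier results of these data known. RNA of 15 tissues (Cy3) and a common reference (Cy5) were hybridised to 2-colour Agilent arrays, without dye swap. The deposited spot files, made with Agilent Feature Extraction, hold intensity values in scanner units and other values, the flags for outliers, saturation and background. The authors' value table, used as an alternative, holds log10 values. Set against the spot files it is a Cy3 level adjusted for the reference, not centred (column medians 2.65 and 2.55 for fat, 2.5 to 2.64 for the others), by a step not given in the sources used here. No values were saturated, and 475 spots with outlier flags were left out. Mean signals were corrected by normexp (offset 50) and normalised by loess. Spots of 1 probe were averaged. Symbols came from the study's probe lists (5971 probes, 5619 symbols), used for names only, and were updated through RefSeq. limma 3.58.1 in R 4.3.3 was fitted over all 30 arrays with 1 coefficient per tissue (15 residual degrees of freedom) and Benjamini-Hochberg adjustment over 21026 probes, so the spread of fat was pooled with that of the other tissues. The script was tested on simulated data. Named genes were the 20 most raised, the 10 most lowered, those above each tissue, the 4 with the largest gap between fat arrays in each direction, and called genes of 18 lists with up to 4 others per list. The median Cy3 signal per array ran from 85.7 to 175, and 2 arrays per tissue limit the precision.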

Additional observations from a re-analysis of the deposited data

Results flagged for a closer look

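Probes outside the authors' value table, which enter no comparison above, also differed in fat. Of 13600 such probes that passed the same background filter, 203 were raised on both fat arrays (1.49%) and 263 were lowered, with the same model and threshold. They carry no gene symbol here. They were picked out because they hold a signal in data that the comparisons above do not use. With 2 arrays per tissue, no test for outlying samples within a tissue was made.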

How the results depend on the processing

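Slide and scan day as fixed terms could not be fitted, since no tissue links the slides or days of fat with those of all other tissues. As random blocks, chosen after seeing the data as was the comparison with 6 linked tissues, they gave 556 and 570 raised probes. Replicate numbers did not pair the arrays (the deviations of replicate 1 correlated over 0.1 in 33 of 105 pairs of tissues), and the replicate block gave the same counts, 588 raised, 633 lowered and 46 above each tissue. Raised, lowered and above-each counts were 1027, 1670 and 50 with the scanner software's processed signals (a shift of all probes to a median difference of -0.19), 1136, 1232 and 59 with the authors' table, 356, 204 and 22 with array weights, and 151, 72 and 14 at a difference of at least 2. The above-each count was 29 with median centring, 103 with the Cy3 level alone and 72 over all noncontrol probes. Leaving out 1 array gave 579 to 2201 raised, 622 to 1899 lowered and 42 to 295 above each tissue. The high ends came from fat: without fat replicate 1 the counts were 1505, 1899 and 101, and without fat replicate 2 they were 2201, 1117 and 295.

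Of 100 named genes, 39 kept their direction and side of the threshold under all 41 settings run for them. With arrays left out in turn, the difference turned, at the value without fat replicate 1, for Tnp1 (-0.16 to 3.71), C4bp (-0.72 to 5.94), Crygc (-0.33 to 6.09), 1700011H14Rik (-1.13 to 5.82), Abcg2 (-0.77 to 2.69), Pkhd1 (-1.09 to 2.93), Adcy8 (-1.45 to 3.92), Crisp4 (-0.013 to 6.69) and 6030419C18Rik (-1.69 to 0.59), and without fat replicate 2 for 3830403N18Rik (-0.58 to 1.61) and 5730437N04Rik (-0.81 to 1.77). With scan day fixed and 6 linked tissues it turned for 3830403N18Rik (-0.59), 5730437N04Rik (-0.74), Col3a1 (-0.092) and Col6a3 (-0.073). The cause was not tested. Probes dim in both Cy3 and Cy5 on a fat array give levels near 0 and have no order there. Where only Cy3 is dim the level is negative.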
